A study of Mus musculus with 23 samples.

Results

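The Notch1 intracellular domain, NICD1, was overexpressed (N1OE) in iPax3 cells, from which myogenic progenitors were derived, and its effect was read in 2 settings: in cultured progenitors and in satellite cells of donor origin taken back out of engrafted muscle. The quantity described here is, for each gene, the difference of 2 differences: N1OE minus control after engraftment, less N1OE minus control in culture. Genes are sorted by it into those that responded alike, those that responded in 1 setting and those that responded in opposite directions. Of the 23 libraries of the series, 20 entered: 4 control and 3 N1OE libraries of cultured progenitors and 9 control and 4 N1OE libraries of re-isolated cells. The controls are labelled WT for genotype and N1OE as NICD1 overexpression, and all 4 groups derive from embryonic stem cells of the iPax3 line. Knockout libraries (N1KO) were left out. The strain, age and number of the host mice, and whether replicates came from separate mice or cultures, are not given in the sources used here, so p-values measure the spread between these libraries, which may be technical.

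Notch receptors are cleaved after a ligand on a neighbouring cell binds them, and the released intracellular domain enters the nucleus, joins the DNA-binding protein RBPJ and switches on targets such as the Hes and Hey repressors. In skeletal muscle Notch activity is known to hold satellite cells, the stem cells of the tissue, in an undifferentiated state and to restrain the muscle differentiation program. The free intracellular domain is known to act without ligand.

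Library totals ran from 11637817 to 29154176 reads in the listed genes. Levels are in CPM, read counts scaled to a common library total; the detection floor of 3 reads lay between 0.103 and 0.258 CPM, depending on the library. Setting was joined with chemistry: cultured RNA was made into stranded TruSeq mRNA libraries and re-isolated RNA into amplified low-input cDNA and Nextera XT libraries, so a level in one setting cannot be set against a level in the other free of the kit. Each NICD1 effect was taken within its setting. Among the 9 re-isolated controls, replicates 1, 4, 7, 8 and 9 carry the suffix GoF in the table's header, a mark left unexplained by the labels, while replicates 2, 3, 5 and 6 lack it. In culture the suffix is on all 4 controls and on N1OE replicate 1 but not on N1OE replicates 2 and 3, and it is on none of the 4 re-isolated N1OE libraries, so what the mark stands for and NICD1 cannot be told apart in full in either setting. The unmarked controls stood apart: genes with 1 read outnumbered genes with 2 reads by a ratio of 1.08 to 1.5 in them, of 4.17 to 5.91 in the marked controls and of 4.18 to 6.82 in re-isolated N1OE. Effects after engraftment are therefore also given against each set of controls alone for the class counts and for some genes and lists, though not for all. In bulk samples fewer cells of a type and less RNA per cell cannot be told apart.

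The labelled identity was checked with markers. Pax7, which defines satellite cells, was at 0.0561 ± 0.0844 CPM (mean ± SD, n = 4) in cultured controls and 0.377 ± 0.451 CPM (n = 3) in cultured N1OE, and at 56.1 ± 32.2 CPM (n = 9) in re-isolated controls and 111 ± 29.0 CPM (n = 4) in re-isolated N1OE. Cdh15, the cadherin of muscle progenitors, was present in all 4 groups, at 199 ± 63.6, 544 ± 47.7, 613 ± 372 and 599 ± 227 CPM in the same order. Notch1 reads, to which a transgene could add, were at 61.3, 78.4, 71 and 105 CPM in the 4 cultured controls and at 370, 297 and 322 CPM in the 3 cultured N1OE libraries, which do not overlap. After engraftment Notch1 was at 14.9 to 174 CPM in the controls (median 88.9) and at 247, 257, 151 and 98.1 CPM in N1OE, so the groups overlapped. Neither effect passed the threshold: the log2 fold change was 2.08 ± 0.62 in culture (SE, limma adjusted p = 0.0726) and 1.22 ± 0.49 after engraftment (adjusted p = 0.108). Against the marked controls alone it was 2.04 (adjusted p = 0.00197), and against the unmarked ones 0.19 (adjusted p = 0.636).

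In the fit over 14245 genes, NICD1 changed 497 genes in culture (3.49% of genes tested), 110 higher (0.772%) and 387 lower (2.72%). After engraftment it changed 1698 genes (11.9%), 964 higher (6.77%) and 734 lower (5.15%). The difference between both effects passed the threshold for 459 genes (3.22%), being more positive after engraftment for 329 (2.31%) and more negative for 130 (0.913%). Across genes, which are not independent replicates, the effects in culture and after engraftment correlated weakly (Pearson's r = 0.154, Spearman's rho = 0.178, as a description with no test). The median standard error was 0.45 for the effect in culture, 0.35 for the effect after engraftment and 0.57 for the difference on the log2 scale.

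From these 3 tests, 72 genes were concordant (both effects passed with 1 sign), 155 were culture-specific (the difference passed, and only the effect in culture did), 238 were engraftment-specific and 24 were opposite (both effects passed with unlike signs). A further 37 passed for the difference alone. For most genes that passed in a single setting the difference did not pass: of 401 called in culture and not after engraftment the difference passed for 155, and of 1602 called after engraftment and not in culture it passed for 238. An effect on 1 side of the threshold only was therefore not counted as specific without that test. The effect that did not pass was within 1 log2 unit of 0 over its whole 95% interval for 21 of the 155 culture-specific and 13 of the 238 engraftment-specific genes; for the others a smaller response was not detectable with these libraries. With the marked controls alone the classes held 143, 242, 585 and 64 genes in the same order, and with the unmarked controls alone 209, 297, 1179 and 79. In those fits the engrafted effect passed for 16.3% (marked) and 28.3% (unmarked) of genes tested, and the difference for 6.9% and 11.8%. In both of these fits alike, 48 of the 72 concordant, 112 of the 155 culture-specific, 172 of the 238 engraftment-specific and 17 of the 24 opposite genes had the same class. Without cultured control replicate 1 and cultured N1OE replicate 1, whose descriptions have another form, the difference passed for 255 genes and the classes held 47, 103, 114 and 12. Leaving out 1 library at a time gave 36 to 82 concordant, 76 to 173 culture-specific, 128 to 259 engraftment-specific and 8 to 28 opposite genes. The lowest counts came without cultured N1OE replicate 2 or 3. Those 2 libraries lay close together and apart from replicate 1 for some genes. Flt1 was at 186, 44.2 and 43.9 CPM in cultured N1OE replicates 1 to 3, and Myog at 137, 20.6 and 21.4 CPM. For others, such as Cmklr1 (5.1, 3.96 and 1.98 CPM), they did not. Whether replicates 2 and 3 are separate cultures is not given, so tests in culture may rest on fewer than 3 independent samples. N1OE and control libraries did not overlap for 32.1% of all genes tested in culture and for 4.79% after engraftment.

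**Figure D1:**
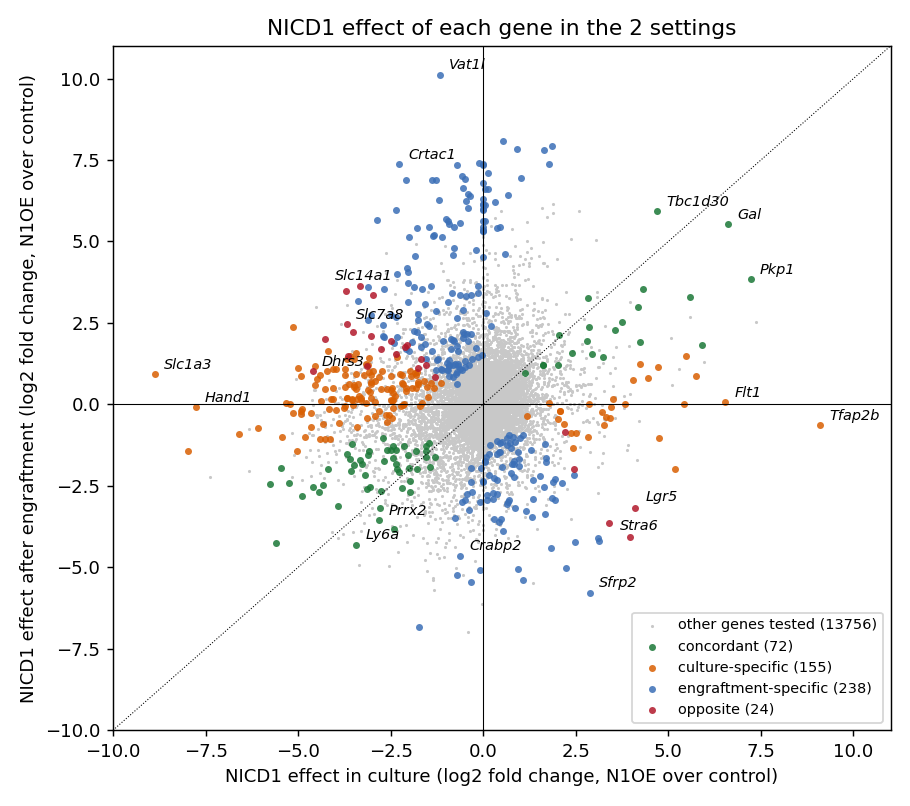
Each point is a gene, with the NICD1 effect in culture on the horizontal axis and after engraftment on the vertical axis, both as log2 fold changes of N1OE over control; the dotted line marks equal effects and colours mark the 4 classes. The 155 culture-specific genes lie along the horizontal axis, mostly on its negative side, the 238 engraftment-specific genes along the vertical axis, and the 24 opposite genes in the upper left and lower right quadrants.

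Of 12 Notch target genes tested, 5 rose in culture (Hey1, Hey2, Heyl, Nrarp and Dtx4) and 2 rose after engraftment (Dtx4 and Bcl6), with none lower in either setting in the fit with all controls. The median effect was 1.5 in culture and 0.71 after engraftment, beside 0.04 and 0.07 over all genes tested. That engrafted median was 1.19 against the marked controls and -0.02 against the unmarked ones. Against the marked controls alone 6 rose and 0 fell after engraftment, and against the unmarked ones 2 rose and 3 fell. The difference was more positive for 1 and more negative for 1 against the marked controls, and for 1 and 7 against the unmarked ones. With all controls the difference passed for 3 of the 12 genes in limma and for 0 with limma-voom on recovered reads (7 at an unadjusted limma p under 0.05).

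Hey1 and Heyl, repressors of the Hey family, were culture-specific. Heyl was at 26.3, 4.19, 3.25 and 34.3 CPM in cultured controls and at 717, 367 and 401 CPM in cultured N1OE. In re-isolated controls it ran from 38.7 to 693 CPM (median 351), and re-isolated N1OE stood at 776, 921, 696 and 570 CPM. The cultured groups were far apart, whereas 1 re-isolated N1OE library lay within the range of the controls. Its log2 fold change was 5.48 ± 0.82 in culture (SE, limma adjusted p = 0.000273) and 1.47 ± 0.64 after engraftment (adjusted p = 0.14), a difference of -4.01 ± 1.04 (adjusted p = 0.0327). Hey1 was at 6.02, 2.16, 3.11 and 11.4 CPM in cultured controls and at 162, 108 and 111 CPM in cultured N1OE. After engraftment its controls spanned 18.7 to 246 CPM (median 120) and its N1OE libraries were at 185, 288, 177 and 257 CPM. The difference for Hey1 was -3.58 ± 0.93 (limma adjusted p = 0.0323). Both calls were lost in 8 of the 20 fits that left out 1 library, in which the adjusted p reached 0.103 for Heyl and 0.094 for Hey1. Against the marked controls alone both genes also rose after engraftment, Hey1 by 2.07 and Heyl by 2.30 (adjusted p = 0.00785 and 0.0178), and the difference was -2.66 for Hey1 (adjusted p = 0.0389) and -3.18 for Heyl, which did not pass (adjusted p = 0.0527). Against the unmarked controls alone the engrafted effects were 0.0067 and 0.44 (adjusted p = 0.994 and 0.584) and the differences -4.73 and -5.04.

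Dtx4, an E3 ubiquitin ligase of the Deltex family, was the concordant member. It was at 77.2, 37.3, 51.5 and 22.4 CPM in cultured controls against 260, 363 and 366 CPM in cultured N1OE, and at 20.4 to 143 CPM (median 52.2) in re-isolated controls against 154, 207, 184 and 170 CPM in re-isolated N1OE. N1OE exceeded every control in both settings. Its effects were 2.93 ± 0.48 in culture and 1.55 ± 0.38 after engraftment (limma adjusted p = 0.00073 and 0.0106), and 1.5 and 1.61 against marked and unmarked controls alone.

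Bcl6, a transcriptional repressor, was engraftment-specific. Its levels were 16.6, 12, 9.75 and 14.5 CPM in cultured controls and 6.63, 9.75 and 9.24 CPM in cultured N1OE, then 19.4 to 55.6 CPM (median 35.1) in re-isolated controls and 74, 83.7, 79.7 and 54.6 CPM in re-isolated N1OE. The difference was 1.70 ± 0.46 (limma adjusted p = 0.0409), a call lost in 12 of the 20 fits without 1 library, with adjusted p up to 0.136. Hey2 and Nrarp, a feedback inhibitor of Notch, rose in culture, by 2.87 ± 0.66 and 5.10 ± 1.31 (adjusted p = 0.0132 and 0.0284), but their differences of -2.26 ± 0.84 and -4.50 ± 1.67 did not pass (adjusted p = 0.174 and 0.17). The engrafted effect of Nrarp turned with the control set: it was 2.73 against marked and -2.05 against unmarked controls, both past the threshold (limma adjusted p = 0.00493 and 0.000787). Hes1 had effects of 1.37 in culture and 0.12 after engraftment, neither past the threshold. Hes5 had no read in any cultured library, so no fold can be given there.

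**Figure D2:**
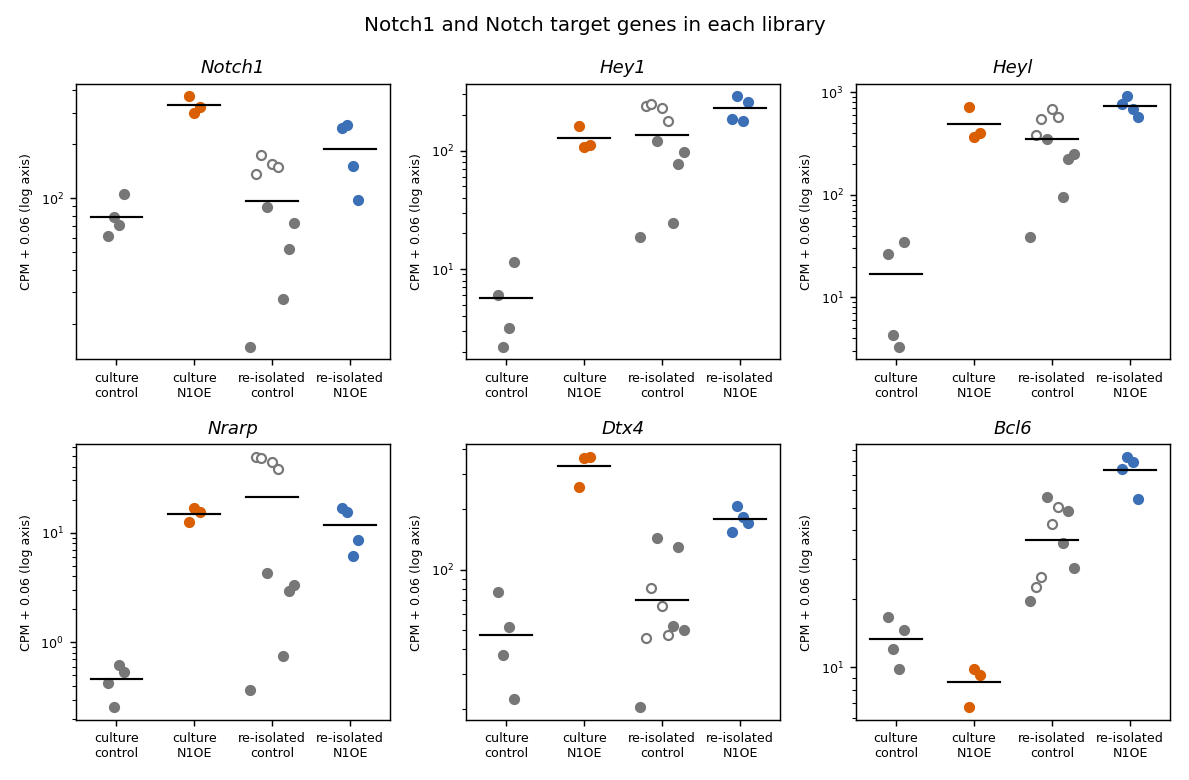
CPM of Notch1 and 5 Notch target genes in each of the 20 libraries on a log axis, with 0.06 CPM added so that 0 can be drawn; bars are group means, and open circles are the re-isolated controls without the header mark. Cultured N1OE lies above cultured control for all genes but Bcl6, while re-isolated N1OE clears all 9 controls for Dtx4 alone among the 6.

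Of 26 Notch receptors, ligands and regulators, none changed in culture, 3 changed after engraftment and none passed for the difference in limma. The 3 are near the share of all genes tested that changed after engraftment (11.9%), so the count does not set this list apart. At an unadjusted limma p under 0.05 there were 2 in culture and 4 for the difference, and limma-voom called 0 in both. For the difference 1 passed (more negative) against marked controls alone, and 3 more positive and 2 more negative against unmarked ones. Dll4, a ligand, rose by 3.66 ± 1.19 (limma adjusted p = 0.048) and Numb, an endocytic inhibitor of Notch, by 1.02 ± 0.33 (adjusted p = 0.0457), while Dner, a transmembrane Notch ligand, changed by -4.78 ± 0.70 (adjusted p = 0.000102). Dner's effect in culture was -1.58 ± 0.89 (adjusted p = 0.613).

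The 72 concordant genes comprised 21 that rose and 51 that fell in both settings. The median effects were 3.23 in culture and 2.12 after engraftment for those that rose, and -2.77 and -1.95 for those that fell. The effect was larger in culture for 58 of the 72. Passing in culture took a larger effect, since the median standard error was 0.45 there and 0.35 after engraftment. Neither this count nor these medians can therefore show in which setting NICD1 acted more strongly. The difference also passed for 5. All 72 kept the sign of their engrafted effect against the marked and against the unmarked controls. Those fits reuse the N1OE libraries and part of the controls that chose the genes. Kept signs and calls are thus no independent check, here or for the other classes.

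Gal, which encodes the neuropeptide galanin, ranked first among the named concordant genes that rose. It was at 0.23, 0.393, 0.371 and 0.297 CPM in cultured controls and at 37.9, 36.2 and 35.3 CPM in cultured N1OE. In re-isolated controls it ran from 0.157 to 45.9 CPM (median 1.54), and in re-isolated N1OE it was at 96.7, 64, 192 and 118 CPM. N1OE lay above every control in both settings, although 2 marked controls, at 29 and 45.9 CPM, stood above the other 7. The effects were 6.62 ± 1.24 and 5.53 ± 0.97 (limma adjusted p = 0.00228 and 0.000736) and the difference -1.09 ± 1.57 (adjusted p = 0.83).

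Pkp1, a desmosomal plakophilin, was at 0, 0, 0 and 0.297 CPM in cultured controls and at 5.89, 17.4 and 21.4 CPM in cultured N1OE, and at 3.73 to 97.4 CPM (median 28.6) in re-isolated controls against 441, 367, 258 and 224 CPM in re-isolated N1OE. Its effects were 7.23 ± 0.92 and 3.83 ± 0.73 (limma adjusted p = 4.09e-05 and 0.00151). Tbc1d30, a GTPase-activating protein for Rab, rose by 4.70 ± 1.02 and 5.92 ± 0.80 (adjusted p = 0.00858 and 4.12e-05). Pcsk2, a convertase that cleaves prohormones, rose by 4.18 ± 0.94 and 2.98 ± 0.74, from 0.589 to 2.39 CPM to 15.6 to 19.4 CPM in culture. The receptors Adcyap1r1, for the peptide PACAP, and Cmklr1, for chemerin, rose by 4.32 and 5.57 in culture and by 3.55 and 3.28 after engraftment. Calls in culture were lost without cultured N1OE replicate 2 or 3 for Tbc1d30, Adcyap1r1 and Pcsk2 (adjusted p up to 0.0639, 0.106 and 0.0632), and engrafted calls without re-isolated N1OE replicate 2 for Cmklr1 and Pcsk2 (adjusted p up to 0.0599 and 0.0559).

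Among the genes that fell in both settings, Prrx2, a homeobox factor of mesenchyme, was at 6.16, 14.2, 7.15 and 40.7 CPM in cultured controls and 1.83, 1.51 and 1.98 CPM in cultured N1OE. Re-isolated controls lay between 12.2 and 24.7 CPM (median 15.3), and re-isolated N1OE at 1.51, 3.4, 0.859 and 0.882 CPM. The groups did not overlap in either setting. The effects were -2.80 ± 0.55 and -3.55 ± 0.43 (limma adjusted p = 0.00339 and 9.67e-06), a difference of -0.75 ± 0.70 (adjusted p = 0.697).

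Ly6a (Sca-1, a surface antigen) changed by -3.42 ± 0.76 in culture and -4.30 ± 0.60 after engraftment. It stood at 39, 121, 272 and 74.4 CPM against 4.6, 13.7 and 12.2 CPM in culture, and at 20.7 to 169 CPM (median 36.4) against 2.95, 1.7, 6.87 and 1.19 CPM in re-isolated cells. Igfbp4, a binding protein of insulin-like growth factors, changed by -2.78 ± 0.72 and -3.19 ± 0.57. Prg4, which encodes lubricin, changed by -3.93 ± 0.94 and -3.12 ± 0.74. Wnt2, a Wnt ligand, had no read in any of the 4 re-isolated N1OE libraries, while its re-isolated controls ran from 0.0512 to 8.12 CPM. Their mean, 2.27 CPM, was at least 60-fold above the floor of 3 reads over the group, but rested mostly on control replicates 1 and 6. The fitted engrafted log2 change was smaller, at -4.68 to -3.90 over the fits without 1 library. In culture Wnt2 changed by -5.59 ± 1.21. The calls in culture were lost without cultured N1OE replicate 1 for Ly6a, without cultured N1OE replicate 2 for Wnt2, without that library or cultured control replicate 4 for Prg4, and in 4 of the 20 fits for Igfbp4 (adjusted p up to 0.0795, 0.0596, 0.169 and 0.182). Ripk4, a kinase of epidermal differentiation, was on the border: its engrafted effect of -2.81 ± 0.91 (limma adjusted p = 0.0464) lost the call in 17 of the 20 fits without 1 library (adjusted p up to 0.111).

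Where the letters of an RBPJ site occur near these genes can be described from RefSeq promoter windows (GRCm38.p6, 250 bases before to 50 after a start). The core TGGGAA was searched on both strands. It occurred in 25.6% of all 32851 windows and 23.5% of the 14343 windows of tested genes. It was in 8 of 17 windows (47.1%) of the 12 concordant genes that rose and have a window, in 9 of 36 (25%) of those that fell, in 46 of 185 (24.9%) of culture-specific, in 71 of 254 (28%) of engraftment-specific and in 9 of 28 (32.1%) of opposite genes. The longer GTGGGAA, which contains that core, was in 6.38% of all windows and in 4 of 17 (23.5%), 2 of 36 (5.56%), 15 of 185 (8.11%), 17 of 254 (6.69%) and 2 of 28 (7.14%) in the same order. These matches are descriptions with no test, since a promoter can hold the letters without being bound. The 250 bases before the start are shown for the 2 named genes that rose in both settings and carry the core, with those of Hey2, which rose in culture, for comparison. The same stretch holds no core in Cmklr1 and Pcsk2, which also rose in both settings, nor in Nrarp, which rose in culture. The core is part of the longer GTGGGAA in Hey2 but not in Gal or Adcyap1r1. Capitals mark TGGGAA or its reverse complement.
Gal, chr19:3414545-3414794 (minus strand): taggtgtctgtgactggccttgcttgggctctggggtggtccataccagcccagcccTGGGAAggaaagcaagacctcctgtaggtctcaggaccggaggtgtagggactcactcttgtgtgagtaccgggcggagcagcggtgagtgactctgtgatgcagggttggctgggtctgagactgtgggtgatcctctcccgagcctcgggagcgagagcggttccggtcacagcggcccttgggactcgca
Adcyap1r1, chr6:55451728-55451977 (plus strand): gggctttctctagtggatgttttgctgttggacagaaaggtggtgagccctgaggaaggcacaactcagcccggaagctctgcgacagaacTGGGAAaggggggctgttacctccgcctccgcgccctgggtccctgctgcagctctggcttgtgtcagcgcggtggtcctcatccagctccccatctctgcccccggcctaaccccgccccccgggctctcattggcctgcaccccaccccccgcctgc
Hey2, chr10:30842784-30843033 (minus strand): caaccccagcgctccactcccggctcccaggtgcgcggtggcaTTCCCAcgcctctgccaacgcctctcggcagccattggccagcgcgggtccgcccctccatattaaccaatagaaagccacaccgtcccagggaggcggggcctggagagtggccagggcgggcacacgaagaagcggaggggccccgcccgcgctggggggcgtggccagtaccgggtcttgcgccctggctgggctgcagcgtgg

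**Figure D3:**
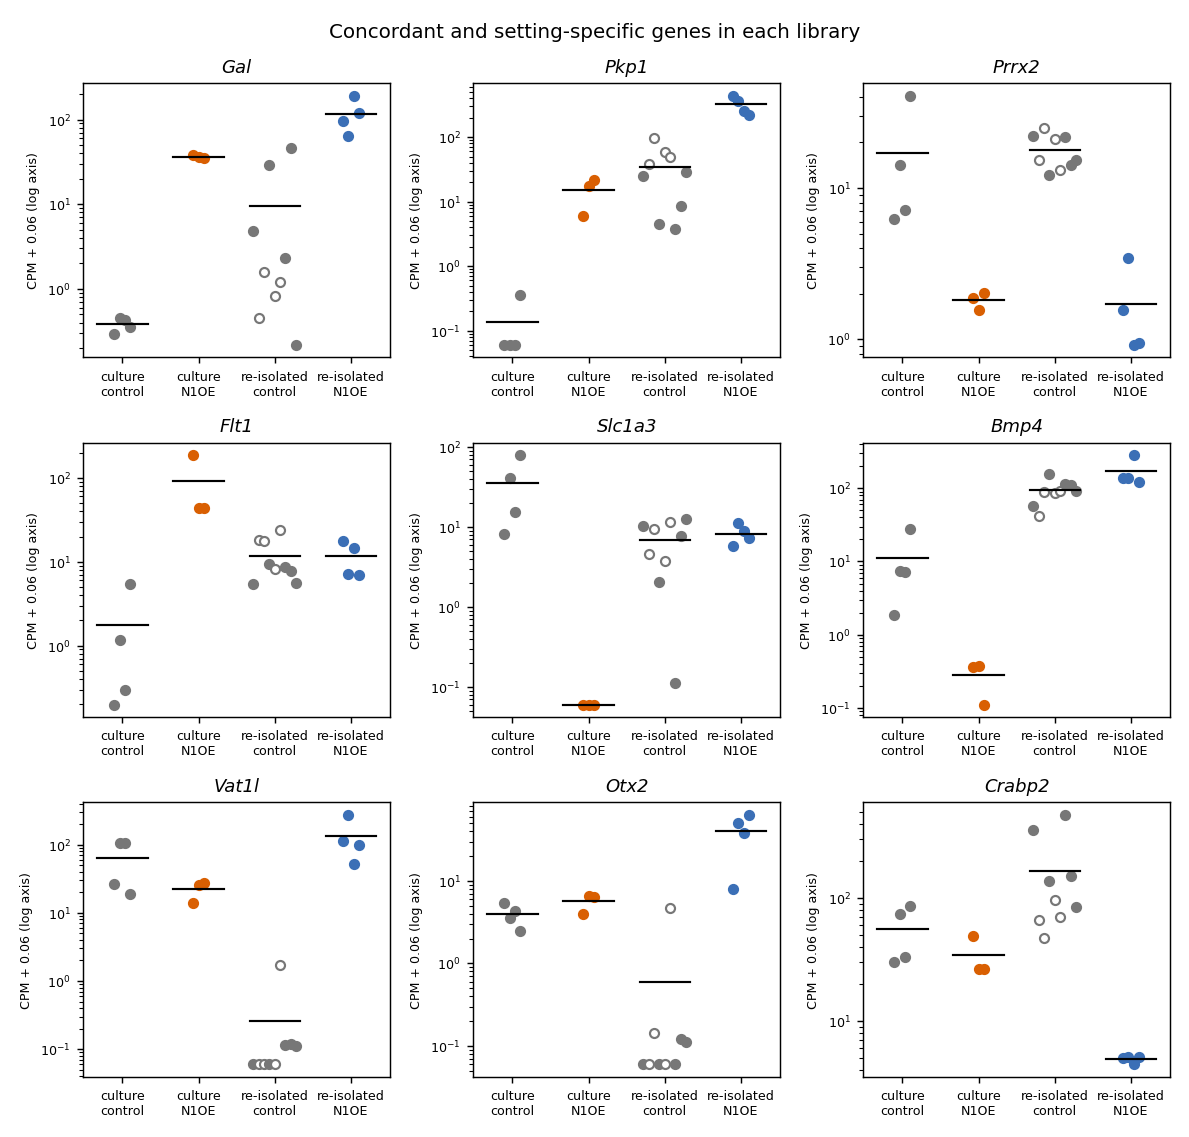
CPM of 3 concordant genes (top row), 3 culture-specific genes (middle row) and 3 engraftment-specific genes (bottom row) in each library, on a log axis with 0.06 CPM added; bars are group means and open circles the re-isolated controls without the header mark. N1OE separates from control in both pairs of columns in the top row, in the left pair only in the middle row and in the right pair in the bottom row.

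Culture-specific genes in this fit were mostly genes that fell: 126 of the 155 were lower and 29 higher in culture. How far falls prevailed depended on the fit. All calls in culture split into 110 higher and 387 lower here. The split was 551 and 686 with separate fits per setting, 2015 and 2151 with array weights, and 86 and 146 with limma-voom. Their median effect in culture was -3.30 for those that fell and 3.42 for those that rose, and 0.46 and -0.22 after engraftment. All 155 differences kept their sign against the marked and the unmarked controls, and 146 passed in both.

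Of 32 sarcomere and contractile genes tested, 26 fell in culture and all 32 had a negative effect there, with a median of -3.64. After engraftment 2 fell (Tpm1 and Tpm2) and the median was -0.58, being 0.32 against marked and -1.54 against unmarked controls. The difference passed for 7 (Acta1, Tnnt2, Myl1, Ttn, Mybpc1, Unc45b and Cacna1s), all culture-specific; limma-voom on recovered reads called 2 of the 32 for the difference and 10 in culture. Acta1, skeletal alpha-actin, was at 1490, 264, 80.7 and 1110 CPM in cultured controls and at 46.9, 7.24 and 8.58 CPM in cultured N1OE. In re-isolated controls it ran from 352 to 3460 CPM (median 1080), and in re-isolated N1OE it was at 847, 686, 1630 and 841 CPM, within that range. Its difference was 4.61 ± 1.10 (limma adjusted p = 0.0185), a call lost without cultured N1OE replicate 2 or 3, as were those of Myl1 and Mybpc1 (adjusted p up to 0.0884, 0.0597 and 0.0744). Both counts depended on the control set: against marked controls alone 2 fell after engraftment and 23 were more positive after engraftment than in culture, and against unmarked controls alone 14 fell after engraftment, 7 were more positive and 1 more negative. Of 6 myosin heavy chains, 4 fell in culture and none changed after engraftment, with medians of -4.49 and -0.32, and the difference passed for none in limma or limma-voom, with 0 of 6 after engraftment and 6 of 6 for the difference at an unadjusted limma p under 0.05.

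Among 15 myogenic regulators 4 fell in culture. Myog, the transcription factor of terminal muscle differentiation, was at 953, 526, 129 and 502 CPM in cultured controls and 137, 20.6 and 21.4 CPM in cultured N1OE, so that 1 library of each group crossed over. After engraftment it was at 93.3 to 270 CPM (median 145) in controls and 261, 403, 414 and 161 CPM in N1OE. The effects were -3.43 ± 0.61 (limma adjusted p = 0.00131) and 0.94 ± 0.48 (adjusted p = 0.204), and the difference 4.37 ± 0.77 (adjusted p = 0.00183). Rbm24, an RNA-binding splicing regulator of muscle, was also culture-specific, with a difference of 2.05 ± 0.51 (adjusted p = 0.0262, lost in 5 of the 20 fits without 1 library, up to 0.102). Cell cycle genes all pointed upward in culture, 33 of 33 with a median of 1.05, yet none passed there in limma or limma-voom (5 at an unadjusted limma p under 0.05), and their engrafted median of -0.02 was -0.71 against marked and 0.58 against unmarked controls. The difference passed for none of the 33 by either tool, with 8 at an unadjusted limma p under 0.05; against marked controls alone 3 passed and against unmarked ones 1, all more negative after engraftment.

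Bmp4, a secreted BMP ligand, was at 1.79, 7.33, 7.01 and 27.7 CPM in cultured controls and at 0.297, 0.315 and 0.0508 CPM in cultured N1OE. After engraftment it was at 42.3 to 158 CPM (median 91.7) in controls and at 139, 140, 282 and 123 CPM in N1OE. The effects were -4.91 ± 0.62 (limma adjusted p = 3.86e-05) and 0.87 ± 0.49 (adjusted p = 0.25), and the difference was 5.78 ± 0.79 (adjusted p = 2e-04). Bambi, a pseudoreceptor that dampens BMP and TGF-β signals, followed it with a difference of 2.14 ± 0.54 (adjusted p = 0.0261), whereas Fst, the secreted antagonist follistatin, was concordant at -4.32 ± 0.66 and -2.49 ± 0.52. In all, 5 of 16 BMP pathway genes fell in culture and 2 after engraftment, with none higher in the fit with all controls. Against marked controls alone 1 rose and 3 fell after engraftment, and against unmarked ones 0 rose and 5 fell. With all controls limma-voom called 0 in culture, 2 after engraftment and 0 for the difference. The matricellular genes Ccn1, Ccn2 and Ccn3 were culture-specific, with differences of 2.71 ± 0.62, 3.98 ± 0.78 and 6.54 ± 1.74 (adjusted p = 0.0139, 0.00437 and 0.0387). Ccn1 lost the call without cultured N1OE replicate 2 or 3 (adjusted p up to 0.0505), Bambi in 6 and Ccn3 in 7 of the 20 fits without 1 library (adjusted p up to 0.109 and 0.12). For Ccn3 the engrafted effect was -3.05 against marked controls and 0.60 against unmarked ones.

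Slc1a3, a glutamate transporter, was at 8.23, 41.2, 15.3 and 79 CPM in cultured controls and had no read in the 3 cultured N1OE libraries. With 3 reads over the group as the floor, that is at least 668-fold below the mean of those controls. In re-isolated cells it was at 0.0533 to 12.4 CPM (median 7.76) in controls and 5.66, 11.2, 8.76 and 7.21 CPM in N1OE, so the groups overlapped. The difference was 9.78 ± 1.43 (limma adjusted p = 0.000351). Ntf3, the neurotrophin NT-3, was at 2.39 to 6.68 CPM in cultured controls and at 0.396, 0 and 0.254 CPM in cultured N1OE, and at 3.35 to 27.2 CPM in re-isolated controls and 21.8 to 35.3 CPM in re-isolated N1OE. Its difference was 5.82 ± 0.91 (adjusted p = 0.000628). Hand1, a transcription factor of heart and lateral mesoderm, changed by -7.76 ± 0.76 in culture (adjusted p = 3.06e-06) and had 1 read in all 13 re-isolated libraries together, so its specificity rests on the gene being all but unread after engraftment. Xirp2, an actin-binding protein of striated muscle, and Clic5, of the chloride intracellular channel family, had differences of 7.49 ± 1.62 and 6.12 ± 1.23. Against the marked controls alone Xirp2 also rose after engraftment, by 3.74 (adjusted p = 0.0107).

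Of the 29 genes higher in culture alone, Flt1, a receptor of VEGF, was at 0.138, 1.11, 0.232 and 5.35 CPM in cultured controls and at 186, 44.2 and 43.9 CPM in cultured N1OE. Re-isolated controls spanned 5.39 to 23.9 CPM (median 8.63), and re-isolated N1OE stood at 17.7, 7.12, 14.7 and 6.85 CPM, inside that span. Its effects were 6.54 ± 0.83 (limma adjusted p = 3.86e-05) and 0.06 ± 0.65 (adjusted p = 0.965), a difference of -6.47 ± 1.05 (adjusted p = 0.000828). Lrrc32, which anchors latent TGF-β at the cell surface, had a difference of -5.77 ± 0.85 (adjusted p = 0.000351). Fap, a membrane protease of activated fibroblasts, had one of -4.88 ± 1.08 (adjusted p = 0.0115), lost without cultured N1OE replicate 1 (adjusted p = 0.0521). Dbx1, a homeobox factor of the neural tube, had one of -7.15 ± 1.29 (adjusted p = 0.00215), and against the unmarked controls alone it fell after engraftment too, with a log2 change of -3.56 (adjusted p = 0.000492).

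Tfap2b, an AP-2 factor of neural crest, was at 0 to 0.0655 CPM in cultured controls and at 61, 41.9 and 30 CPM in cultured N1OE, but at no more than 0.681 CPM in any re-isolated library. The effect in culture was 9.10 ± 1.06 (limma adjusted p = 1.95e-05) and the difference -9.74 ± 1.35 (adjusted p = 0.000235). Htr1a, a serotonin receptor, was at 10.5, 2.14 and 2.74 CPM in cultured N1OE and had no read in any re-isolated library, so no engrafted fold exists. For Tfap2b, Htr1a and Hand1 the comparison is thus between a response in culture and a gene near or at 0 reads after engraftment. Slc2a3, a glucose transporter, rose in culture by 3.46 ± 0.51 against -0.07 ± 0.40 after engraftment (difference -3.54 ± 0.65, adjusted p = 0.00239).

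The 238 engraftment-specific genes comprised 151 that rose and 87 that fell after engraftment. The median engrafted effect was 3.36 and -2.37 in these, against -0.79 and 0.65 in culture. In 70 of the 238, of which 66 rose, both cultured groups averaged below 1 CPM. All 238 kept their sign against the marked and the unmarked controls, and the difference passed in both for 220.

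Vat1l showed the largest difference among the named genes. It was at 26.2, 104, 104 and 18.8 CPM in cultured controls and at 13.9, 25.2 and 27.4 CPM in cultured N1OE. In re-isolated controls it was at 0 to 1.63 CPM (median 0), and in re-isolated N1OE at 114, 273, 51.4 and 99.8 CPM. It was therefore read in both cultured groups and in re-isolated N1OE, and close to 0 in re-isolated controls. The effects were -1.18 ± 0.94 (limma adjusted p = 0.873) and 10.12 ± 0.74 (adjusted p = 2.48e-08), and the difference was 11.30 ± 1.19 (adjusted p = 1.11e-05).

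Crtac1, which encodes cartilage acidic protein, was at no more than 0.297 CPM in culture and no more than 0.376 CPM in re-isolated controls, and at 14.3, 15, 10.1 and 10.6 CPM in re-isolated N1OE, with a difference of 9.65 ± 1.01 (limma adjusted p = 1.11e-05). Slc38a5, an amino acid transporter, and Ermap, an erythroid membrane protein, had differences of 8.97 ± 1.79 and 8.32 ± 1.27 (adjusted p = 0.0048 and 0.000521). Lgi1, a secreted protein known from the synapse, had one of 8.27 ± 1.52 (adjusted p = 0.00256). Pla2g4e, a phospholipase, was called at 8.53 ± 2.32 (adjusted p = 0.043) but lost the call in 11 of the 20 fits without 1 library (adjusted p up to 0.119). Its engrafted effect was 8.75 against marked controls and 1.82 against unmarked ones.

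Of 11 neural and neural crest factors tested, 5 rose after engraftment and 2 in culture, none fell in either, and the medians were 2.44 and 0.54. Otx2, a homeobox factor of the forebrain, was at 5.38, 3.47, 4.27 and 2.44 CPM in cultured controls and 3.91, 6.42 and 6.4 CPM in cultured N1OE. Re-isolated controls were at 0 to 4.64 CPM (median 0), and re-isolated N1OE at 7.92, 49.7, 38.5 and 62.9 CPM. The difference was 7.54 ± 1.42 (limma adjusted p = 0.00325). Zic4, a zinc finger factor, was at 114, 113, 123 and 75.2 CPM in re-isolated N1OE. In re-isolated controls it was at 0 to 0.0606 CPM in the marked and 2.41 to 6.61 CPM in the unmarked ones. In culture it had no read except in N1OE replicate 3, at 0.305 CPM, so its specificity rests on a gene all but unread there. The difference was 6.94 ± 1.88 (limma adjusted p = 0.0429, lost in 13 of the 20 fits without 1 library, adjusted p up to 0.139). Msx1, a homeobox factor, was culture-specific with a difference of -3.01 ± 0.67 (adjusted p = 0.0113, and 0.0611 without cultured N1OE replicate 3). Its engrafted effect of 1.23 ± 0.41 was just outside the threshold (adjusted p = 0.0537), and with 5 CPM added before the log its difference became 0.81.

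Gad1, the enzyme that makes GABA, was at no more than 0.442 CPM in re-isolated controls and at 37, 15.8, 21.5 and 19.1 CPM in re-isolated N1OE, with a difference of 5.60 ± 1.24 (limma adjusted p = 0.0116, and 0.0583 without cultured N1OE replicate 2). Over the whole list of 8 neuronal markers the summed level was 35.8 to 96.8 CPM in re-isolated controls and 45.8 to 65.8 CPM in re-isolated N1OE. Of the 5 tested, Gad1 rose and Tubb3 fell after engraftment.

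Within the Wnt pathway, 6 of 19 genes fell and 2 rose after engraftment, while 2 fell in culture, and the engrafted median was -1.48 (-1.78 and -1.36 against marked and unmarked controls alone). Sfrp2, a secreted Wnt-binding protein, was at 1.15, 4.71, 2.55 and 15.5 CPM in cultured controls and 49.4, 21.9 and 22.1 CPM in cultured N1OE, but at 3.14 to 292 CPM (median 86.2) in re-isolated controls against 1.65, 1.39, 0.0859 and 3.32 CPM in re-isolated N1OE. The marked controls were at 86.2 to 292 CPM and the unmarked ones at 3.14 to 47.2 CPM, so N1OE replicate 4 lay within the unmarked range. The effects of Sfrp2 were 2.89 ± 1.26 (limma adjusted p = 0.35) and -5.78 ± 0.99 (adjusted p = 0.000586), a difference of -8.66 ± 1.60 (adjusted p = 0.00263). The intracellular Wnt inhibitors Nkd1 and Nkd2 parted: Nkd1 changed by -3.00 ± 0.39 and Nkd2 by 3.17 ± 0.77 after engraftment (adjusted p = 2.91e-05 and 0.00987). Nkd2 had no read in cultured N1OE and was at 0, 1.31, 0.186 and 5.71 CPM in cultured controls. The mean of these controls was at least 33.5-fold above the floor of 3 reads over the group. That mean rested mostly on control replicate 4, and control replicate 1 had no read either. The effect of Nkd2 in culture, -3.37 ± 0.98, fell just outside the threshold (limma adjusted p = 0.0601), so it was not counted as opposite. Rspo1, a secreted Wnt enhancer, was at 107, 72.4, 76.3 and 56.8 CPM in re-isolated N1OE (difference 7.51 ± 1.94, limma adjusted p = 0.032). Its re-isolated controls were at 0 to 0.0606 CPM in the marked and 2.05 to 12.9 CPM in the unmarked set. The calls were lost without cultured N1OE replicate 1 for Nkd1 (adjusted p = 0.0563) and in 9 of the 20 fits for Rspo1 (adjusted p up to 0.0925). Wnt5a was concordant, at -1.82 ± 0.42 and -1.43 ± 0.33. Of the 19 genes, limma-voom called 0 in culture, 5 after engraftment and 1 for the difference.

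Genes that fell after engraftment alone included Tfap2c, an AP-2 factor, with a difference of -7.32 ± 1.33 (limma adjusted p = 0.00228). Adh7, an alcohol dehydrogenase that can oxidise retinol, was at 3.35, 6.68, 4.27 and 10.5 CPM against 32.2, 31.8 and 31.4 CPM in culture, and at 1.42 to 16.5 CPM (median 8.19) against 0, 0.722, 0.687 and 0.622 CPM in re-isolated cells. Its groups did not overlap in either setting and lay in reverse order, but the effect in culture, 2.49 ± 0.82, did not pass (adjusted p = 0.12). The difference was -6.72 ± 1.04 (adjusted p = 0.000584). Cpz, a carboxypeptidase of the extracellular matrix, and the channel Trpv1 had differences of -6.46 ± 1.15 and -7.20 ± 1.73 (adjusted p = 0.00203 and 0.0196), the latter lost without cultured N1OE replicate 2 or 3 or re-isolated N1OE replicate 2 (adjusted p up to 0.0617). Syt13, a synaptotagmin, had one of -7.26 ± 2.0 (adjusted p = 0.0464), lost in 15 of the 20 fits (adjusted p up to 0.115).

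Opposite responses were the smallest class. Of the 24 genes, 5 rose in culture and fell after engraftment, and 19 fell in culture and rose after engraftment. The medians were 3.40 and -3.19 for the 5, and -2.98 and 1.77 for the 19. All 24 differences passed, which the class makes near certain, since both effects passed with unlike signs. Each passed again against the marked and against the unmarked controls alone, in fits that share libraries with the one that chose the genes.

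Stra6, the receptor that takes up retinol from its carrier in blood, was at 3.49, 0.982, 0.325 and 2.44 CPM in cultured controls and at 20.4, 12.6 and 11.4 CPM in cultured N1OE. In re-isolated controls it ran from 2.67 to 23.5 CPM (median 10), and in re-isolated N1OE it was at 0.377, 1.96, 0.687 and 0.415 CPM. N1OE lay above all controls in culture and below all controls after engraftment. The effects were 3.40 ± 0.76 and -3.64 ± 0.60 (limma adjusted p = 0.0106 and 0.000371) and the difference -7.04 ± 0.97 (adjusted p = 0.000223). The engrafted effect was -3.74 against marked and -3.53 against unmarked controls.

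Dhrs3, which reduces retinaldehyde back to retinol, went the other way. It was at 6.2, 10.9, 13.4 and 7.85 CPM in cultured controls and at 0.198, 0.378 and 0.457 CPM in cultured N1OE, and at 27.5 to 118 CPM (median 60.3) in re-isolated controls against 102, 159, 144 and 120 CPM in re-isolated N1OE, whose lowest library overlapped the controls. The effects were -4.60 ± 0.42 and 1.02 ± 0.33 (limma adjusted p = 2.16e-06 and 0.0461), and the difference was 5.62 ± 0.53 (adjusted p = 4.65e-06). Crabp2, a carrier of retinoic acid in the cell, was engraftment-specific, with overlapping groups in culture (difference -4.02 ± 0.76, limma adjusted p = 0.00325). It was at 47.3 to 473 CPM (median 95.5) in re-isolated controls against 4.97, 5.05, 4.38 and 5.03 CPM in re-isolated N1OE. The marked controls were at 84.5 to 473 CPM and the unmarked ones at 47.3 to 95.5 CPM. Of the 15 retinoic acid pathway genes tested, 4 fell and 1 rose after engraftment and 1 fell and 1 rose in culture; the difference passed for the 3 named here.

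Lgr5, the R-spondin receptor that marks epithelial stem cells, was at 14.2, 2.36, 5.52 and 0.595 CPM in cultured controls and at 47.4, 62.1 and 62.6 CPM in cultured N1OE. After engraftment it was at 7.43 to 75.6 CPM (median 21.3) in controls and at 1.99, 6.91, 2.58 and 1.61 CPM in N1OE. Neither pair of groups overlapped. The difference was -7.29 ± 1.02 (limma adjusted p = 0.000261). S1pr1, a receptor of sphingosine-1-phosphate, was at 25.3, 27.8, 23.5 and 18.3 CPM against 128, 101 and 98.6 CPM in culture and at 7.76 to 22 CPM (median 13.0) against 6.89, 8.92, 7.56 and 6.07 CPM in re-isolated cells, with effects of 2.21 ± 0.34 and -0.86 ± 0.27 (adjusted p = 0.000369 and 0.0393); the cultured groups were apart and the re-isolated ones overlapped by 1 N1OE library. Ankrd35 and Ildr2 completed the 5, with differences of -8.02 ± 1.29 and -4.42 ± 0.76.

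Slc14a1, a urea transporter, led the 19 genes that fell in culture and rose after engraftment. It was at 0.827, 2.49, 2.41 and 0.952 CPM in cultured controls and 0.198, 0.0629 and 0 CPM in cultured N1OE, then at 0.622 to 21.3 CPM (median 4.1) in re-isolated controls and 52, 53.7, 56.5 and 39.2 CPM in re-isolated N1OE. The effects were -3.71 ± 0.83 and 3.49 ± 0.65 (limma adjusted p = 0.0102 and 0.00138), and the difference was 7.19 ± 1.05 (adjusted p = 0.000351). Slc7a8, a transporter of neutral amino acids, was at 81.9, 572, 281 and 28 CPM in cultured controls and 16.1, 9.69 and 7.82 CPM in cultured N1OE, and at 1.07 to 16.5 CPM (median 8.0) in re-isolated controls against 24.3, 41.5, 47.5 and 31.6 CPM in re-isolated N1OE. Both pairs of groups were apart, in reverse order (difference 6.15 ± 1.11, adjusted p = 0.0022). Lims2, an adaptor of focal adhesions, had a difference of 6.33 ± 1.06.

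Plekha6 was at 3.95, 15.9, 17.3 and 4.52 CPM against 0.743, 0.944 and 0.457 CPM in culture and at 1.21 to 8.43 CPM (median 2.82) against 14.2, 12.8, 16.7 and 11.9 CPM in re-isolated cells (difference 5.72 ± 0.81, limma adjusted p = 0.000302). Ebf3, a transcription factor of the early B-cell factor family, had a difference of 5.14 ± 1.06 (adjusted p = 0.00679), although its engrafted effect was 3.15 against marked and 0.79 against unmarked controls. Another 13 genes of this kind ranged in their difference from 2.15 to 6.27. They included, chosen after their values were seen, the cytokine Lif (-2.11 in culture, 1.77 after engraftment) and the nuclear receptor Rora (-2.36 and 1.55).

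**Figure D4:**
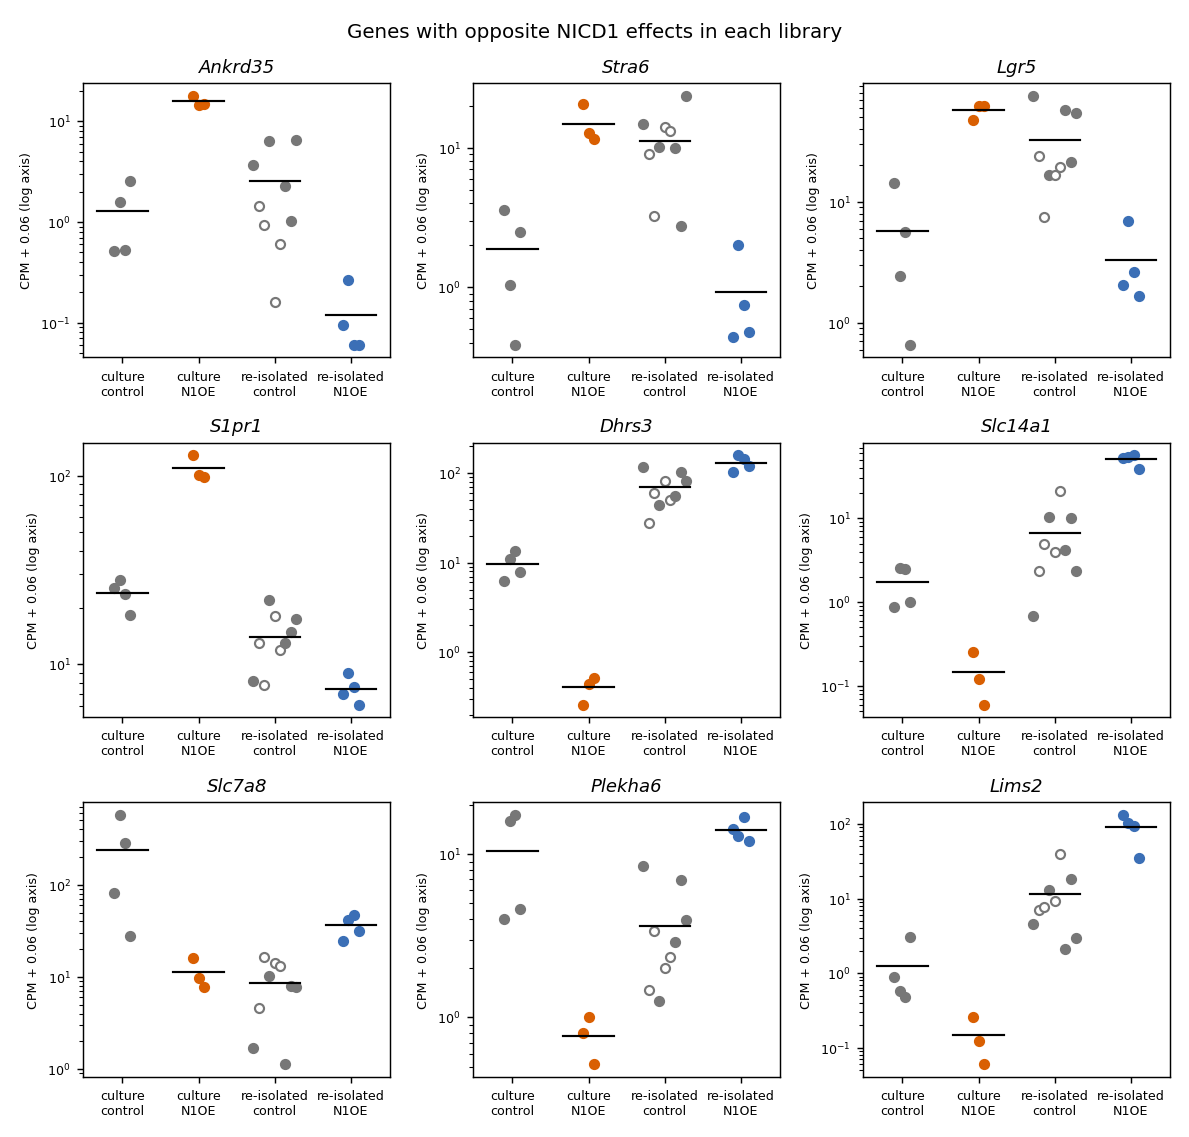
CPM of 9 of the 24 opposite genes in each library, on a log axis with 0.06 CPM added; bars are group means and open circles the re-isolated controls without the header mark. For Ankrd35, Stra6, Lgr5 and S1pr1 the N1OE libraries lie above the controls in culture and low after engraftment, and for the other 5 genes the order is reversed.

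Markers of other cell types were followed beside these results. The summed level of 10 endothelial markers was 10.6 to 16.7 CPM in cultured controls, 47 to 191 CPM in cultured N1OE, 17.4 to 81.8 CPM in re-isolated controls and 64.6 to 130 CPM in re-isolated N1OE. Flt1 alone of these 10 rose in culture. After engraftment 4 rose (Kdr, Tek, Emcn and Esam) and all 10 had a positive effect, with a median of 1.15. Kdr, another VEGF receptor, was engraftment-specific (difference 5.60 ± 1.55, limma adjusted p = 0.0477, lost in 13 of the 20 fits without 1 library, adjusted p up to 0.134). Cdh5, which defines endothelium, was at 0.426 ± 0.675 CPM (SD, n = 4) in cultured controls and 0.0165 ± 0.0286 CPM (n = 3) in cultured N1OE, and at 5.25 ± 6.43 CPM (n = 9) in re-isolated controls and 3.67 ± 2.08 CPM (n = 4) in re-isolated N1OE. The 9 macrophage markers summed to 51.9 to 725 CPM in re-isolated controls (87.6 to 725 in the marked and 51.9 to 196 in the unmarked ones) and to 32.9 to 171 CPM in re-isolated N1OE, and 2 of them fell after engraftment. The 8 tenocyte and chondrocyte markers summed to 689 to 2060 CPM in re-isolated controls and 266 to 862 CPM in re-isolated N1OE, with 3 lower, and the 8 Schwann and glial markers to 45.9 to 320 and 167 to 243 CPM. The 9 fibro-adipogenic markers summed to 820 to 3910 and 936 to 2920 CPM, the 10 pericyte and smooth muscle markers to 1000 to 3220 and 949 to 1430 CPM, and the 20 satellite cell markers to 2500 to 5800 and 4700 to 6560 CPM. The 8 lymphocyte and neutrophil markers summed to 0.0346 to 3.19 CPM in re-isolated controls and 3.97 to 6.59 CPM in re-isolated N1OE; Cd3e, of the T-cell receptor complex, was engraftment-specific at 1.72 to 5.29 CPM in N1OE against no more than 0.0524 CPM in its controls (difference 6.2 ± 1.0, adjusted p = 0.000828). The 5 erythroid markers reached 284 CPM in 1 re-isolated N1OE library, against 2.59 to 5.91 CPM as the lowest and median of that group and at most 2 CPM in the controls. Among 6 Schwann and glial markers tested Ngfr, the low-affinity neurotrophin receptor, was culture-specific (difference 4.01). The part of such cells in the effects was not tested.

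**Figure D5:**
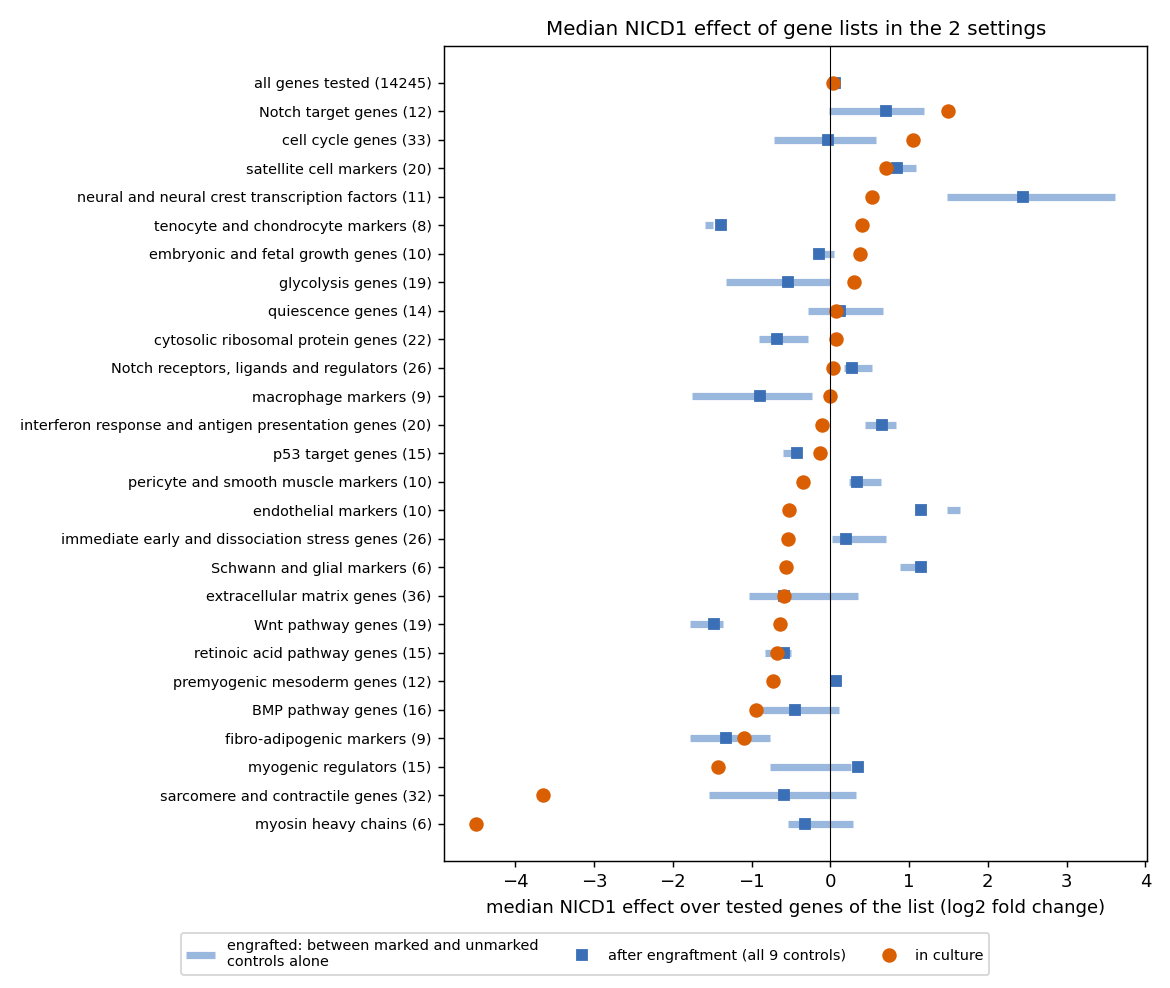
Median NICD1 effect, as a log2 fold change, over the tested genes of each list with at least 6 of them (number in brackets), in culture (circles) and after engraftment (squares, all 9 controls); the pale bar runs between the medians against marked and unmarked controls alone. Sarcomere genes and myosin heavy chains are farthest to the left in culture, at -3.64 and -4.49, and neural factors farthest to the right after engraftment among the lists drawn, at 2.44, while for several lists, cell cycle, sarcomere, BMP and extracellular matrix genes among them, the pale bar spans 0.

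Of 20 satellite cell markers Tenm4 was concordant (1.60 ± 0.42 and 1.21 ± 0.33) and Chrdl2 engraftment-specific (difference 6.24 ± 1.69, limma adjusted p = 0.042, lost in 12 of the 20 fits without 1 library, adjusted p up to 0.134), with list medians of 0.71 in culture and 0.85 after engraftment. No quiescence gene of 14, no interferon or antigen presentation gene of 20 and no ribosomal protein gene of 22 passed for the difference in limma or limma-voom (3, 7 and 4 at an unadjusted limma p under 0.05); the effects of all 22 ribosomal protein genes were nevertheless more negative after engraftment than in culture, with a median difference of -0.67, and 17 of the 20 interferon and antigen presentation genes were more positive, with a median of 0.89. Against the unmarked controls alone 8 ribosomal protein genes passed for a more negative effect after engraftment and 12 fell there, and against the marked ones 0 passed for the difference and 1 fell. Of the quiescence genes 4 passed for the difference against marked controls (3 more positive) and 3 against unmarked ones (1 more positive). Of 19 glycolysis genes 1 passed for a more negative effect with all controls, and 9 did with the unmarked ones alone. Among 15 p53 targets Pmaip1 rose and Sesn2 fell after engraftment alone, with differences of 2.37 ± 0.61 and -1.78 ± 0.44 (adjusted p = 0.03 and 0.0243), lost in 7 and 5 of the 20 fits without 1 library (up to 0.101 and 0.0755). Of 26 immediate early and dissociation stress genes 1 passed for the difference, Egr3, at 2.11 ± 0.54 (adjusted p = 0.031, lost in 7 of the 20 fits, up to 0.0975), with neither effect past the threshold on its own. The median difference was 1.02 over that list and 0.04 over all genes tested.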

How the data were processed

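RNA-seq libraries of cultured iPax3 progenitors and of re-isolated donor cells were used, 20 of 23. The authors deposited log2 CPM per gene; per the submitters' processing notes Trimmomatic 0.33, FastQC, featureCounts, edgeR and mm10 were used, and the aligner, the annotation and the strand setting are not given in the sources used here. Overlapping and antisense genes may therefore share reads. The lowest deposited value, -4.19, corresponds to 0 reads, and 100% of values came out as whole reads within 0.05 reads. Whether values were adjusted further before deposit was not decided.

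Genes with at least 1 CPM in 3 libraries (14245 of 21264) were fitted on the deposited log2 scale with limma 3.58.1 in R 4.3.3, as 4 groups with a trended prior, two-sided, at a Benjamini-Hochberg adjusted p of 0.05 over all genes tested. A fold change on this scale understates the change of genes with few reads. The script was tested on simulated data. The classes follow from the tests of both effects and of their difference; intervals are at 95%, and the floor is 3 reads, which covers counting error only. Named genes were the 6 largest per class and direction with 5 CPM in a group, no predicted gene and the same sign against both control sets, plus Notch1, Notch targets and up to 4 genes per list with the smallest p of the difference. Genes that this rule names and that the text omits are not reported here. Members and gene lists were chosen with earlier results of these data known. Alternatives covered the control sets, the fit, weights, recovered reads (limma-voom), pseudocounts, scaling, filters, a replicate block and each library left out. Knockout libraries entered 1 alternative only. Sequences are from RefSeq (GRCm38.p6); 11194 of the genes tested had a promoter window.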

Additional observations from a re-analysis of the deposited data

Results flagged for a closer look

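Of 177 pairs of a gene and a group tested (59 named genes), 17 held 1 library far from the others by Dixon's criterion. Cultured N1OE, with 3 libraries, was not tested, so its absence below does not mean that none of its libraries stood apart. For normally distributed values chance gives about 1 in 20 such groups. Where all other libraries were at 0, any read at all is flagged, so that rate does not hold for those groups. In cultured control, the CPM values that stood apart were Pkp1 at 0.297 in replicate 4 (all others 0), Cmklr1 at 0.119 in replicate 4 (all others 0) and Pcsk2 at 2.39 in replicate 1 (others 0.589 to 0.714). In re-isolated N1OE, the CPM values that stood apart were Adcyap1r1 at 5.83 in replicate 2 (others 9.28 to 9.98), Ripk4 at 0.0516 in replicate 2 (all others 0), Igfbp4 at 23 in replicate 3 (others 11.2 to 12.4), Tfap2b at 0.156 in replicate 4 (all others 0), Ntf3 at 21.8 in replicate 1 (others 34.9 to 35.3), Pla2g4e at 6.93 in replicate 1 (others 36.7 to 49), Syt13 at 0.995 in replicate 1 (all others 0), Adh7 at 0 in replicate 1 (others 0.622 to 0.722), Cpz at 0.0519 in replicate 4 (all others 0) and Dtx1 at 0.995 in replicate 1 (all others 0). In re-isolated control, the CPM values that stood apart were Slc1a3 at 0.0533 in replicate 7 (others 2.01 to 12.4), Hand1 at 0.0346 in replicate 1 (all others 0), Vat1l at 1.63 in replicate 6 (others 0 to 0.0606) and Crtac1 at 0.376 in replicate 3 (others 0 to 0.0524).

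Differences between the NICD1 effects after engraftment and in culture passed limma's test for 459 genes, of which 64 named ones are given here in log2 units. The effect was more positive after engraftment, with a difference of Vat1l 11.30, Slc1a3 9.78, Crtac1 9.65, Slc38a5 8.97, Pla2g4e 8.53, Ermap 8.32, Lgi1 8.27, Hand1 7.68, Otx2 7.54, Rspo1 7.51, Xirp2 7.49 and Slc14a1 7.19. Smaller differences of that sign were Zic4 6.94, Ccn3 6.54, Nkd2 6.54, Lims2 6.33, Chrdl2 6.24, Cd3e 6.2, Slc7a8 6.15, Clic5 6.12, Ntf3 5.82, Bmp4 5.78, Plekha6 5.72 and Dhrs3 5.62. Further ones were Kdr 5.60, Gad1 5.60, Mybpc1 5.28, Ebf3 5.14, Myl1 4.76, Acta1 4.61, Myog 4.37, Cacna1s 4.26, Ngfr 4.01, Ccn2 3.98, Ccn1 2.71 and Pmaip1 2.37. Further ones were Bambi 2.14, Egr3 2.11, Rbm24 2.04 and Bcl6 1.70. The effect was more negative after engraftment, with a difference of Tfap2b -9.74, Sfrp2 -8.66, Ankrd35 -8.02, Tfap2c -7.32, Lgr5 -7.29, Syt13 -7.26, Trpv1 -7.20, Dbx1 -7.15, Stra6 -7.04, Adh7 -6.72, Flt1 -6.47 and Cpz -6.46. Smaller differences of that sign were Lrrc32 -5.77, Htr1a -5.42, Fap -4.88, Ildr2 -4.42, Crabp2 -4.02, Heyl -4.01, Hey1 -3.58, Slc2a3 -3.54, S1pr1 -3.07, Msx1 -3.01, Nkd1 -2.91 and Sesn2 -1.78.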

How the results depend on the processing

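Counts are given in the order difference, culture, engraftment, concordant, culture-specific, engraftment-specific and opposite, and were 459, 497, 1698, 72, 155, 238 and 24 as reported. They were 983, 664, 2310, 143, 242, 585 and 64 with controls marked in the header, 1672, 861, 3988, 209, 297, 1179 and 79 with unmarked ones, 834, 641, 1770, 123, 238, 456 and 44 with controls marked in the description, and 635, 598, 2437, 95, 189, 355 and 34 with unmarked ones. Without the 2 cultured libraries of another description form they were 255, 309, 1332, 47, 103, 114 and 12. Separate fits per setting gave 840, 1237, 842, 70, 277, 323 and 26, array weights 1287, 4166, 827, 189, 666, 387 and 100, and limma-voom on recovered reads 224, 232, 1660, 38, 53, 135 and 14. A pseudocount of 1 gave 568, 507, 1867, 74, 183, 309 and 26, one of 5 gave 617, 555, 1820, 67, 223, 319 and 19, and no filter gave 369, 434, 1371, 50, 156, 169 and 14. A minimum of 5 CPM gave 410, 469, 1421, 71, 144, 206 and 24, and the fit with knockout libraries 475, 501, 1751, 76, 170, 237 and 23. Median ratio scaling gave 468, 510, 1719, 85, 155, 244 and 24 and moved the engrafted split to 836 higher and 883 lower. Strict classes held 21 culture-specific and 13 engraftment-specific genes. Leaving out 1 library gave 235 to 497, 225 to 551, 1043 to 1908, 36 to 82, 76 to 173, 128 to 259 and 8 to 28. The cause of these changes was not tested.

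The replicate block gave 318, 388, 807, 37, 99, 169 and 13. Same-numbered libraries correlated at 0.00352, 0.083 and 0.287 in culture and at -0.0861, -0.0517, 0.0282 and -0.154 after engraftment. Cultured N1OE replicate 1 correlated at -0.431 with cultured control replicate 3 and at 0.345 with cultured control replicate 4. With so few libraries these values cannot decide whether any libraries were paired or shared a batch. Single differences that changed sign were Hes5 (-0.54) and Csf1r (0.015) with unmarked controls, and Dner (0.17), Msx1 (0.81) and Fst (-0.72) with a pseudocount of 5. Of the values of named genes under other settings, 2302 kept direction and call, 132 gained and 172 lost the call and 5 reversed; with 1 library left out these numbers were 3267, 28, 196 and 0. At 3 reads, the floor was 0.103 to 0.258 CPM per library, which limits what can be said of genes below it.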
